A study of Mus musculus with 16 samples.

Results

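Eosinophilic esophagitis is an allergic disease of the esophagus in which eosinophils enter the squamous epithelium, and human genetic studies have placed risk variants at several loci. The 6 risk genes described here, mouse counterparts of genes at such loci or of barrier genes tied to the disease, were chosen by name: Ankrd27, Clec16a, Tslp, Lrrc32, Spink7 and Capn14. Of these 6 genes, 5 had an entry among the 41411 genes of the count table, and 4 were high enough to be tested (at or above 5 in no fewer than 4 libraries, as were 16748 genes of the whole table). Spink7 was too low for that test, and Capn14 was not analysed here.

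RNA of whole mouse esophagus was measured by CEL-Seq, which reads tags near the 3' ends of transcripts, in 16 libraries from C57BL/6 mice. The 4 groups of 4 libraries were Il13ra1-/- mice given OXA (KO OXA), Il13ra1-/- mice given vehicle (KO vehicle), WT mice given OXA (WT OXA) and WT mice given vehicle (WT vehicle). Il13ra1 encodes the IL-13-binding chain of the type II IL-4 receptor, and the labels call the knockout Il13ra1-/- without naming the deleted part or a cell type. OXA is the compound usually called oxazolone, an ethoxymethylene phenyl oxazolinone and a skin-sensitizing hapten used to set off experimental eosinophilic esophagitis. The labels give no age, sex, dose or batch, and do not say how the libraries of a group were collected, so p-values measure the spread between these libraries only.

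The proteins encoded by the 6 genes have different known functions. TSLP is an epithelial alarmin cytokine that activates dendritic cells and type 2 lymphocytes. LRRC32, also called GARP, docks latent TGF-beta on the surface of regulatory T cells, platelets and endothelium. SPINK7 is an inhibitor of serine proteases and CAPN14 a calcium-dependent protease, both known from human esophageal epithelium. ANKRD27, also called VARP, is a Rab effector that sorts cargo out of endosomes, and CLEC16A takes part in endosomal traffic and in the removal of mitochondria by autophagy.

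Promoters are shown for only 2 of the risk genes, Ankrd27 and Clec16a, which also carried the largest read numbers of the 5 measured. They are the 250 bases before each start on the + strand of GRCm38.p6, from RefSeq, at chr7:35585997-35586246 for Ankrd27 and chr16:10545089-10545338 for Clec16a. Capitals mark the GC box GGGCGG and the letters CCAAT, searched on both strands.
Ankrd27: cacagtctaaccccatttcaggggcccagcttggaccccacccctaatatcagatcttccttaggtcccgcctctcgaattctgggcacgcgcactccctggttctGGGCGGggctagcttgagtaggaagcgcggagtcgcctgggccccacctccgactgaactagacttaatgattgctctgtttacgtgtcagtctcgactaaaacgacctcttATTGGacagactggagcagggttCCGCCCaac
Clec16a: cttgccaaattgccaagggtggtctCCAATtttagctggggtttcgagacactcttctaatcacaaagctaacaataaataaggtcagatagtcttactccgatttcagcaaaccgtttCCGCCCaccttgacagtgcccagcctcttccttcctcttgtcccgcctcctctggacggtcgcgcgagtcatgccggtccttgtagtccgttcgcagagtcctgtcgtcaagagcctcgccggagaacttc
The Ankrd27 window held 2 GC boxes and 1 CCAAT match, and the Clec16a window held 1 of each. Among 32851 RefSeq mouse promoters cut to the same length, 32.7% held GGGCGG and 33.8% held CCAAT. Neither window held TTCNNNGAA, the letters bound by STAT factors, which 7.02% of all promoters held, nor the same half-sites with 1 more base between them (5.85%). AGATAA (9.99% of all promoters) and TATAAA (12.4%) were also absent from these letters. The GC content was 56.8% for Ankrd27 and 52.8% for Clec16a.

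The libraries differed in depth between groups. Depth was 11.6 ± 2.71 M reads in KO OXA, 12.9 ± 3.64 M in KO vehicle, 23.3 ± 3.63 M in WT OXA and 7.64 ± 1.70 M in WT vehicle (SD, n = 4 each). Il13ra1 averaged 99.1 ± 56.9 normalized counts in KO OXA and 721 ± 123 in WT OXA, a log2 fold change of -3.02 ± 0.32 (SE; limma, adjusted p = 1.1e-06). It averaged 50.1 ± 14.2 in KO vehicle and 191 ± 39.8 in WT vehicle (-1.93 ± 0.32, adjusted p = 0.0267), a call that held under 18 of 28 alternative settings, with adjusted p up to 0.128. It was lost without WT vehicle library 1, 2 or 3, WT OXA library 2 or KO vehicle library 1, 3 or 4. Since the position of the 3' tags relative to the deletion is not known, the remaining reads in KO libraries do not check the deletion itself. Every squamous epithelial marker of the 10 examined had reads in every group.

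**Figure D1:**
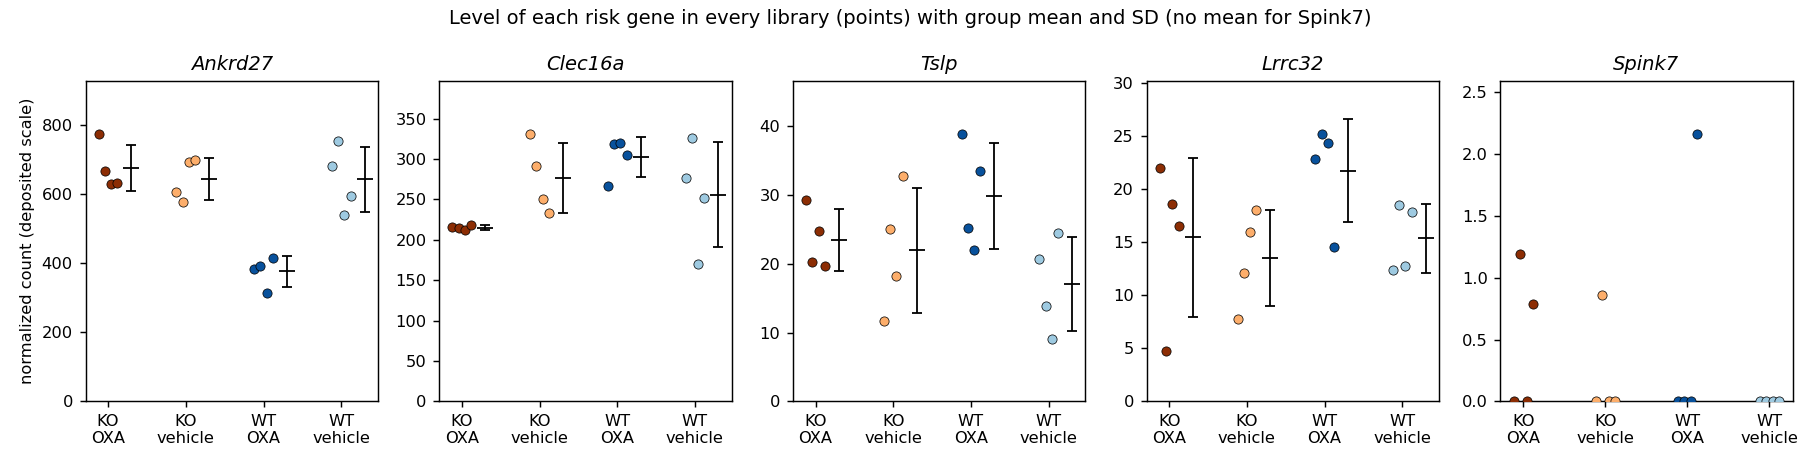
Normalized count (vertical axes, deposited scale, starting at 0) of the 5 risk genes in each library, with 4 points per group and the group mean and SD beside them except for Spink7. All 4 WT OXA points of Ankrd27 lie at or below 415.82 while every other library lies at or above 540.01, and the 4 KO OXA points of Clec16a lie between 211.66 and 218.24.

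Ankrd27 was lower in WT mice given OXA than in WT mice given vehicle, and no such decrease was called in Il13ra1-/- mice. Its gene (ENSMUSG00000034867) lies at chr7:35586244-35639226 on the + strand of GRCm38, has 29 exons in its longest annotated transcript and overlaps no other annotated gene. The normalized counts were 771.94, 665.59, 627.56 and 632.66 in KO OXA libraries and 605.29, 576.47, 693.17 and 697.56 in KO vehicle libraries. They were 382.51, 391.54, 313.09 and 415.82 in WT OXA libraries, against 681.56, 754.11, 540.01 and 592.80 in WT vehicle libraries. The 4 WT OXA libraries were below all 12 others, and the other 3 groups overlapped one another.

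In WT mice, Ankrd27 fell under OXA by 0.77 ± 0.14 on the log2 scale (SE; limma on log2 of the value plus 1, adjusted over all 16748 genes, adjusted p = 0.000417). The 95% interval ran from -1.07 to -0.47, and the level under OXA was 0.587 times that under vehicle. In KO mice the log2 difference was 0.07 ± 0.14, with an interval from -0.23 to 0.37 (limma, adjusted p = 0.882). The KO effect minus the WT effect was 0.84 ± 0.20 (interval 0.41 to 1.26, adjusted p = 0.00765). Under OXA, KO mice were above WT mice by 0.85 ± 0.14 (interval 0.54 to 1.15, adjusted p = 0.000196). Under vehicle the same difference was 0.01 ± 0.14, with an interval from -0.29 to 0.31 (adjusted p = 0.992). The order of the group means was KO OXA (674 ± 67.2), KO vehicle (643 ± 61.5), WT vehicle (642 ± 94.8) and WT OXA (376 ± 44.1; SD, n = 4 each), and only the lowest stood apart.

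Differences of this kind were common in this tissue. Of all tested genes, 16% fell and 18.0% rose under OXA in WT mice (34.0% in all), and Ankrd27 was the only one of the 4 tested risk genes to change. In 15.7% of genes all 4 WT OXA libraries were below all 4 WT vehicle libraries. Between KO OXA and WT OXA, 27.6% of all genes were called, 14.6% as higher, and in the interaction 17.8% were called, 10.1% as positive; Ankrd27 was again the only risk gene called. In KO mice OXA changed 1.90% of genes and none of the 4 risk genes in limma, edgeR or DESeq2, with none at an unadjusted p under 0.05 in limma.

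The size of these values depends on how libraries are scaled. With equal library totals in place of the deposited size factors, the median of all genes moved by 0.31 in WT mice, by -0.12 in KO mice, by -0.42 in the interaction and by -0.39 between KO OXA and WT OXA. The Ankrd27 difference in WT mice was then -0.45 on the log2 scale (limma, adjusted p = 0.0147) and the difference between KO OXA and WT OXA 0.43 (adjusted p = 0.0185), while the interaction of 0.39 was no longer called (adjusted p = 0.144). Relative to the median of all genes the Ankrd27 difference in WT mice was -0.87 with the deposited scaling and -0.86 with equal totals, and the interaction was 0.94 and 0.92. With every library thinned to 5.61 M reads, the WT value was -0.82 (adjusted p = 0.000305). That scaling also turned the split of all called genes: in WT mice 3019 rose and 2673 fell with the deposited size factors, and 5107 rose and 1496 fell with equal totals. Between KO OXA and WT OXA it changed from 2450 higher and 2167 lower to 1273 higher and 5111 lower, and in the interaction from 1698 and 1284 to 883 and 3459.

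Summed marker levels of several cell types also differed between the groups. The summed normalized count of the 10 squamous epithelial markers ranged from 1259368 to 2740715 in KO OXA, from 1359028 to 1668979 in KO vehicle, from 456609 to 747251 in WT OXA and from 1292529 to 1892451 in WT vehicle. WT OXA libraries were thus lowest in this sum as in Ankrd27. By count, though, 2 of the 10 markers rose and 3 fell in WT mice, where 18.0% and 16% of all tested genes did. The 12 leukocyte markers summed to between 548 and 1332 in KO OXA, 267 and 914 in KO vehicle, 1024 and 1336 in WT OXA, and 234 and 359 in WT vehicle, with Itgam and Epx at 0 in every group and Prg2 at 0 in WT vehicle. The 9 muscle markers summed to between 114024 and 185147 in KO OXA, 180868 and 235320 in KO vehicle, 73768 and 138295 in WT OXA, and 138472 and 278704 in WT vehicle. In WT mice 4 of the 9 fell and none rose (median -0.69), with WT OXA wholly below WT vehicle in the sum and overlapping KO OXA, while none of 6 fibroblast markers passed in either direction. The part of these cell types in the Ankrd27 result was not tested. In whole tissue, fewer cells of a type and less RNA per cell cannot be told apart.

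**Figure D2:**
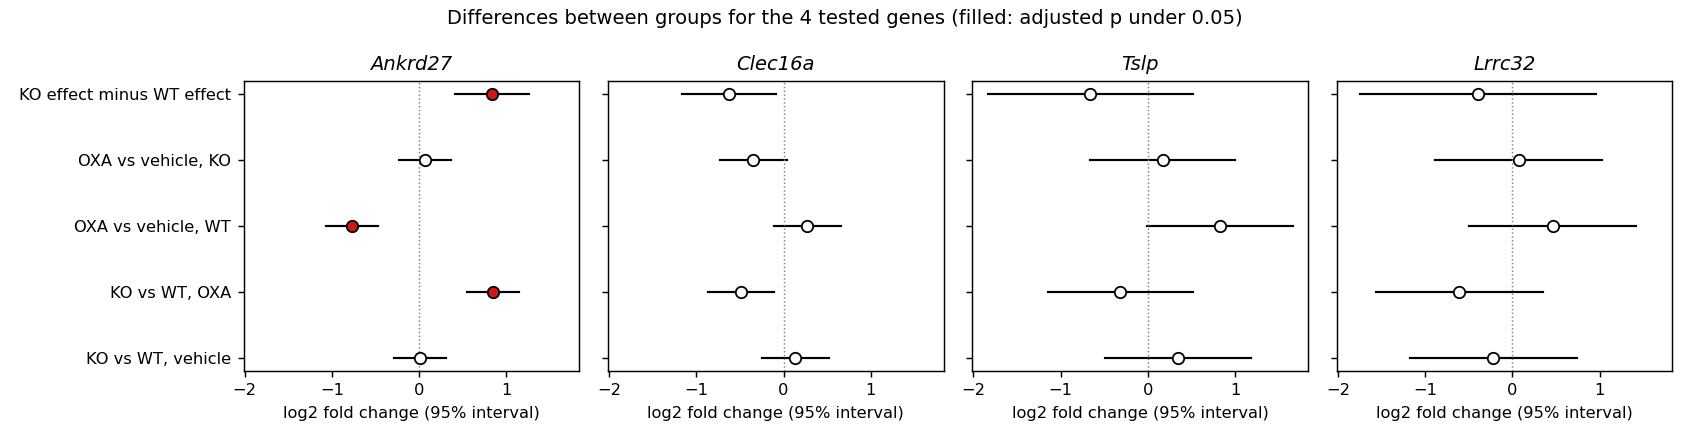
Log2 fold change (horizontal axes) with its 95% interval for the 4 tested risk genes in the 5 comparisons, which run down the page, with filled points where the limma adjusted p was under 0.05. The 3 filled points are all of Ankrd27: the interaction (0.84), OXA against vehicle in WT mice (-0.77) and KO against WT under OXA (0.85).

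Both immediate neighbours of Ankrd27 fell with it in WT mice. Of 14 annotated genes within 250 kb, 10 were tested, of which 1 rose and 2 fell in WT mice under OXA, 3 had a positive interaction, and 3 were higher and 1 lower in KO OXA than in WT OXA. Over all tested genes the shares were 18.0% and 16% in WT mice and 10.1% for a positive interaction. Between KO OXA and WT OXA they were 14.6% higher and 12.9% lower. Rgs9bp, which encodes an anchor of a G protein regulator in retinal photoreceptors, lies 0.662 kb before the start of Ankrd27 on the opposite strand. It averaged 41.7 ± 15.2 normalized counts in KO OXA, 56.4 ± 18.3 in KO vehicle, 5.51 ± 3.61 in WT OXA and 39.1 ± 14.5 in WT vehicle. The WT OXA libraries (1.62 to 9.75) were below all 12 others (21.63 to 79.39).

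Rgs9bp fell by 2.74 ± 0.45 on the log2 scale in WT mice (limma, adjusted p = 0.00012), and the interaction was 2.30 ± 0.64 (adjusted p = 0.0168). Pdcd5, a small protein linked to apoptosis, lies 2.756 kb past the end of Ankrd27, also on the opposite strand. It averaged 1089 ± 337 in KO OXA, 822 ± 113 in KO vehicle, 465 ± 33.6 in WT OXA and 846 ± 58.1 in WT vehicle, a log2 difference of -0.86 ± 0.19 in WT mice (adjusted p = 0.00183) and an interaction of 1.21 ± 0.27 (adjusted p = 0.0046). The WT OXA libraries of Pdcd5 were below all others too, the nearest being KO OXA library 4 at 609.81.

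Nudt19, a nudix hydrolase gene 29.94 kb away that was chosen after its values were seen, averaged 214 ± 40.9 in KO OXA, 168 ± 11.9 in KO vehicle, 117 ± 9.50 in WT OXA and 162 ± 22.0 in WT vehicle. Its WT difference of -0.46 ± 0.18 did not pass the test (adjusted p = 0.0547), while KO OXA was above WT OXA by 0.85 ± 0.18 (adjusted p = 0.00141). Its interaction of 0.79 (adjusted p = 0.0375) held under 14 of 27 alternatives: it was lost without WT vehicle library 2 or 3, WT OXA library 1, 3 or 4, any KO vehicle library or KO OXA library 1, 2 or 3 (adjusted p = 0.0503 to 0.0818), and with equal library totals (0.303). Since the counting was not stated to use strand, reads at the junction of these genes were taken as the file gives them.

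**Figure D3:**
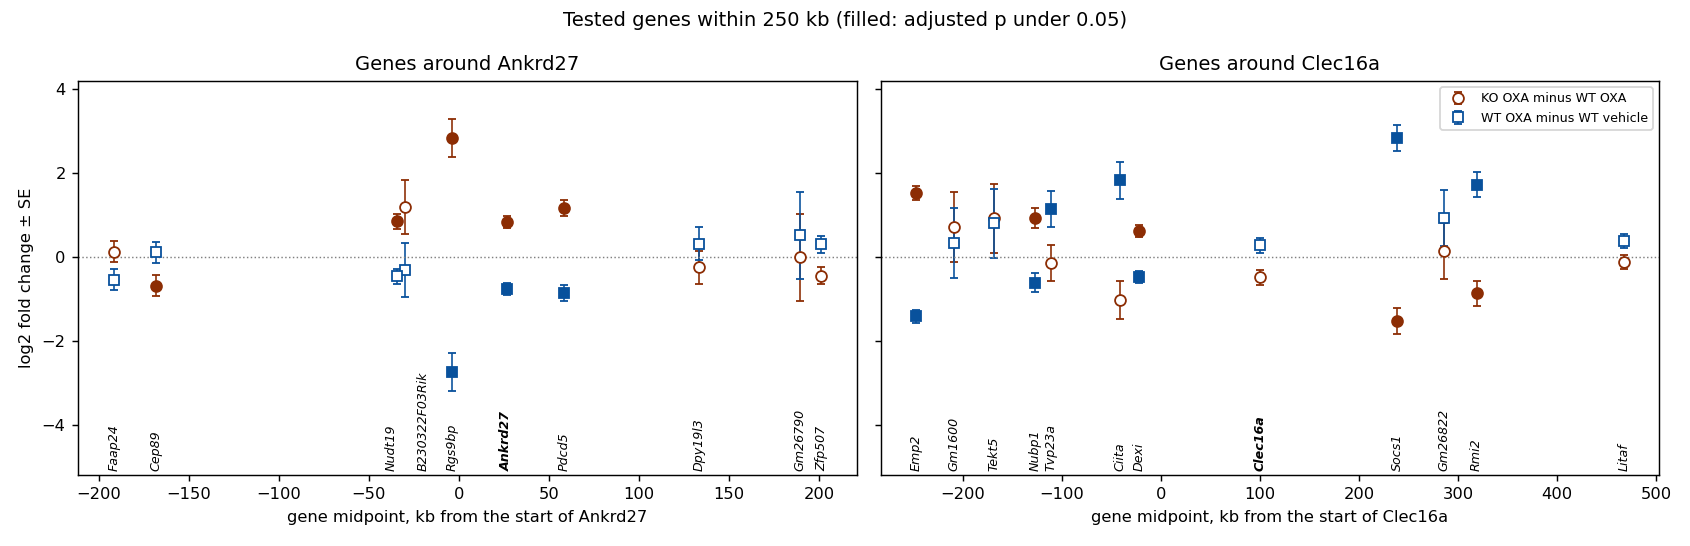
Log2 fold change ± SE (vertical axis) of tested genes within 250 kb of Ankrd27 (left, all but 1) and Clec16a (right), by the distance of each gene's midpoint from the member's start in kb, for KO OXA minus WT OXA (circles) and WT OXA minus WT vehicle (squares); filled symbols passed the test. At Ankrd27, the genes Rgs9bp, Pdcd5, Nudt19, Faap24 and B230322F03Rik have the same 2 signs as Ankrd27. Of these only Rgs9bp and Pdcd5 have both symbols filled. The other plotted genes there have the opposite signs, and those around Clec16a lie on both sides of 0.

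Of the partners of Ankrd27 in endosomal sorting, Vamp7 was not analysed here. Of the other 10 listed genes 2 fell and none rose in WT mice, where 16% of all genes fell (median -0.19, against 0.10 over all genes), and 2 had a positive and 1 a negative interaction. The interaction was called for 17.8% of all tested genes, 10.1% as positive. Rab38, the small GTPase that VARP binds on melanosome-related endosomes, had 711.43, 567.95, 531.01 and 470.36 normalized counts in KO OXA and 511.72, 427.17, 429.90 and 622.06 in KO vehicle. It had 235.89, 242.21, 238.94 and 340.21 in WT OXA, against 517.71, 645.94, 430.55 and 599.49 in WT vehicle. WT OXA was again below all other libraries, and it fell by 1.05 ± 0.18 (limma, adjusted p = 0.000185) with an interaction of 1.25 ± 0.26 (adjusted p = 0.00238).

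Hps1, a subunit of the exchange factor for Rab38, fell by 0.98 ± 0.24 in WT mice (limma, adjusted p = 0.00435), though with equal library totals it did not pass (adjusted p = 0.0529). Vps29, the retromer subunit that VARP binds, differed by -0.38 ± 0.19 in WT mice (adjusted p = 0.124) and by 0.64 ± 0.19 in KO mice (adjusted p = 0.0934), neither called. Its interaction of 1.03 ± 0.26 passed (adjusted p = 0.0112) but not with equal totals (0.0539).

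Over the 16 libraries the 5 named genes most like Ankrd27 were Pla2g3 (Pearson r of the log2 level 0.98), Il10rb (0.97), Gpld1 (0.96), Sh3gl1 (0.96) and Gsdma (0.96). These r values are descriptions across libraries that fall into 4 groups and share the group differences. Pla2g3, a secreted phospholipase, averaged 286 ± 63.9 in KO OXA, 263 ± 18.0 in KO vehicle, 84.8 ± 15.99 in WT OXA and 259 ± 78.2 in WT vehicle. Il10rb, the shared chain of the IL-10 and IL-22 receptors, averaged 756 ± 30.3, 737 ± 94.1, 418 ± 34.6 and 736 ± 92.8 in the same 4 groups. Each of the 5 fell in WT mice, with log2 differences of -0.81 (Il10rb) to -2.32 (Gpld1), and had a positive interaction, of 0.85 (Il10rb, not called with equal totals, adjusted p = 0.115) to 2.29 (Gpld1). Because they were picked for likeness to Ankrd27 in these same libraries, their sharing its pattern is not an independent result. Among the risk genes themselves r was -0.38 between Ankrd27 and Clec16a, -0.36 between Ankrd27 and Lrrc32 and -0.27 between Ankrd27 and Tslp.

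**Figure D4:**
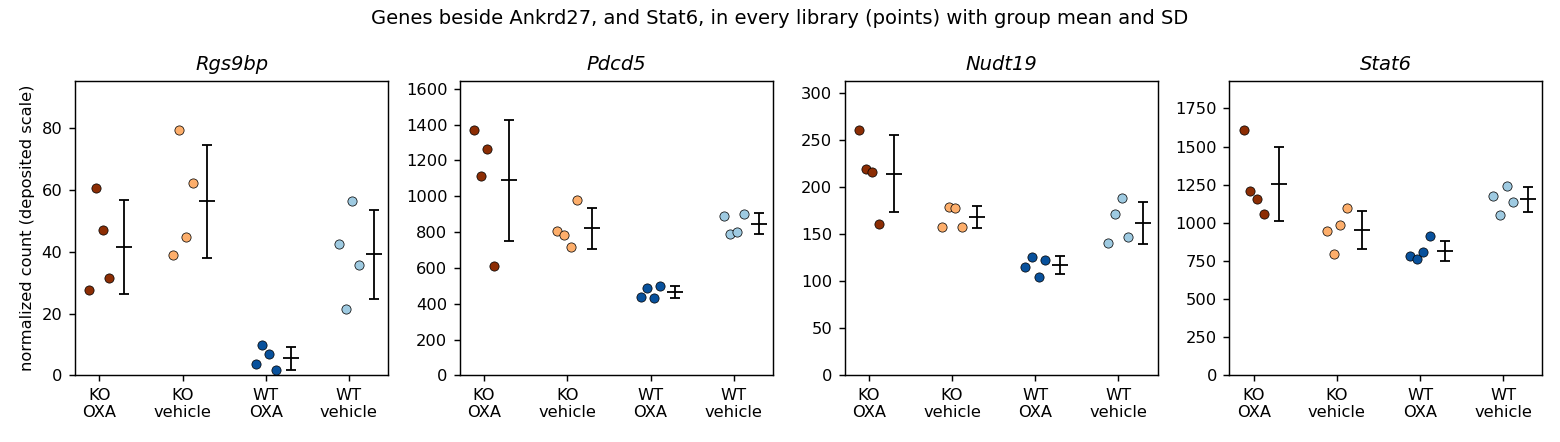
Normalized count (vertical axes, deposited scale, starting at 0) of Rgs9bp, Pdcd5, Nudt19 and Stat6 in every library, with group means and SD. WT OXA has the lowest mean in all 4 panels: 5.51 for Rgs9bp, 465 for Pdcd5, 117 for Nudt19 and 817 for Stat6.

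Clec16a was lowest in KO mice given OXA. The gene (ENSMUSG00000068663) lies at chr16:10545339-10744878 on the + strand, with 24 exons in its longest transcript. Its normalized counts were 216.36, 214.32, 211.66 and 218.24 in KO OXA and 330.43, 291.69, 250.33 and 233.07 in KO vehicle. They were 266.38, 318.67, 319.76 and 304.57 in WT OXA, against 276.76, 326.06, 169.66 and 251.83 in WT vehicle. The KO OXA libraries were below all KO vehicle and all WT OXA libraries, and WT vehicle ran from below all KO OXA libraries to above every library but KO vehicle library 1. The antisense gene Gm15558 overlaps it, with values of 0 to 1.58.

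No Clec16a difference passed the test with the deposited scaling. KO OXA was below WT OXA by a log2 difference of -0.49 ± 0.18 (95% interval -0.87 to -0.10, limma, adjusted p = 0.0539), a comparison in which 29.3% of genes had groups that did not overlap (15.3% of all genes with KO lower). This value passed in 6 of 12 other settings, among them edgeR (-0.51, adjusted p = 0.0333), DESeq2 (-0.49, 0.023) and equal totals (-0.90, 0.00139), and also without WT vehicle library 2 (0.0377) or 3 (0.0243). In KO mice OXA was below vehicle by -0.35 ± 0.18 (adjusted p = 0.409), with groups that did not overlap, as in 2.94% of genes in that direction (6.87% in either). In WT mice the difference was 0.27 ± 0.18 (interval -0.11 to 0.66, adjusted p = 0.264). The interaction was -0.62 ± 0.26 (interval -1.16 to -0.08, adjusted p = 0.103), and it passed without WT vehicle library 2 (-0.75, 0.0419). With equal totals the WT difference was 0.59 (adjusted p = 0.0207) and the interaction -1.06 (0.0092), so the calls of Clec16a changed with scaling. Under vehicle KO minus WT was 0.14 ± 0.18 (adjusted p = 0.848).

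The order of the Clec16a means was WT OXA (302 ± 24.95), KO vehicle (276 ± 43.6), WT vehicle (256 ± 65.3) and KO OXA (215 ± 2.82; SD, n = 4 each), and the values of neighbours in this order overlapped. The spread of the 4 KO OXA libraries, 1.31% of their mean, was below the 7.32% that counting error alone gives for the mean of their 118 to 277 reads. In WT vehicle, where libraries had 93 to 211 reads, the spread was 25.5% against 8.05% from counting. The low SD in KO OXA is thus narrower than the reads behind it can set.

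Around Clec16a, 11 of 21 annotated genes within 250 kb were tested, of which 4 rose and 3 fell in WT mice and 1 rose in KO mice. In the interaction 2 were positive and 2 negative, and KO OXA was above WT OXA for 3 and below it for 2. Over all tested genes 18.0% rose and 16% fell in WT mice, and 1.90% were called in KO mice. The interaction was called for 17.8% of them, and KO OXA was above WT OXA for 14.6% and below it for 12.9%. Socs1, the inhibitor of cytokine receptor JAK kinases, averaged 263 ± 113 in KO OXA, 115 ± 20.9 in KO vehicle, 696 ± 25.5 in WT OXA and 103 ± 40.8 in WT vehicle. Its WT rise was 2.83 ± 0.31 (limma, adjusted p = 1.23e-06), its KO difference 1.08 ± 0.31 (adjusted p = 0.0856) and its interaction -1.75 ± 0.43 (adjusted p = 0.00867). Rmi2, a subunit of a DNA repair complex, rose by 1.72 in WT mice (adjusted p = 0.000216), and Emp2, an epithelial membrane protein, fell by 1.42 (adjusted p = 2.62e-06).

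Dexi lies 2.285 kb from Clec16a on the opposite strand and averaged 986 ± 119 in KO OXA, 1166 ± 117 in KO vehicle, 640 ± 86.4 in WT OXA and 890 ± 112 in WT vehicle. It fell by 0.48 ± 0.14 in WT mice (limma, adjusted p = 0.0145), a call lost without WT OXA library 1 (0.0574) or with equal totals (0.485). Ciita, the master regulator of MHC class II genes, averaged 101 ± 58.5 in KO OXA, 31.3 ± 19.98 in KO vehicle, 181 ± 11.9 in WT OXA and 50.8 ± 8.45 in WT vehicle. It rose by 1.83 ± 0.44 in WT mice (adjusted p = 0.00349). In KO mice the difference was 1.74 ± 0.44 (adjusted p = 0.0472), which held under 10 of 28 alternatives and was lost without any WT vehicle library but the fourth, any WT OXA library, KO vehicle library 1, 3 or 4 or KO OXA library 1 or 2 (adjusted p up to 0.194).

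Of the partners of Clec16a and mitophagy genes, 9 were tested, of which 5 fell and none rose in WT mice (median -0.47, against 0.10 over all genes), and 4 had a positive interaction. Over all tested genes 16% fell and 18.0% rose in WT mice, and 10.1% had a positive interaction. Map1lc3b, an autophagosome coat protein found in most cells, was listed at 0 in every library, so a 0 in this file is not by itself a sign of absence. Map1lc3a, its close relative, fell by 1.19 ± 0.22 in WT mice (limma, adjusted p = 0.00044), with an interaction of 1.27 ± 0.32 (adjusted p = 0.00905). Bnip3, a receptor that marks mitochondria for autophagy, averaged 4027 ± 911 in KO OXA, 4139 ± 173 in KO vehicle, 2323 ± 271 in WT OXA and 4215 ± 761 in WT vehicle, a log2 difference of -0.85 ± 0.16 in WT mice (adjusted p = 0.000557). Pink1, the kinase that senses damaged mitochondria, fell by 0.88 ± 0.22 in WT mice (adjusted p = 0.00452) but not with equal totals (0.0682).

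The genes most like Clec16a over the 16 libraries were Aak1 (r = 0.86) and Pitpnc1 (0.84), followed by Efnb3, Lclat1 and Rere. Pitpnc1, a phosphatidylinositol transfer protein, averaged 694 ± 157 in KO OXA, 891 ± 173 in KO vehicle, 1270.4 ± 120 in WT OXA and 812 ± 228 in WT vehicle. It rose by 0.69 ± 0.20 in WT mice (limma, adjusted p = 0.0134) and its interaction was -1.06 ± 0.29 (adjusted p = 0.0156). As it was picked for likeness to Clec16a in these same libraries, a shared direction is not an independent result.

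Tslp had few reads, and no difference between groups passed the test with the deposited scaling. The gene (ENSMUSG00000024379) lies at chr18:32815383-32819799 on the + strand, within the span of the non-coding gene 4930455D15Rik on the other strand. Since the use of strand in counting was not stated, reads from a gene and its antisense partner cannot be told apart, here as at Clec16a and Spink7. Its normalized counts were 29.34, 20.24, 24.76 and 19.70 in KO OXA and 11.70, 25.03, 18.26 and 32.83 in KO vehicle. They were 38.83, 25.15, 21.97 and 33.48 in WT OXA, against 20.65, 13.91, 9.12 and 24.51 in WT vehicle. WT OXA and WT vehicle overlapped, since WT OXA library 3 was below WT vehicle library 4.

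Behind these values stood 78 reads over the 4 KO OXA libraries, 85 in KO vehicle, 274 in WT OXA and 40 in WT vehicle, with 5 to 107 reads in a library. The WT difference was 0.83 ± 0.40 on the log2 scale, with an interval from -0.01 to 1.66 (limma, adjusted p = 0.118). It was 1.14 with equal totals (adjusted p = 0.0286), the one setting in which it passed, and 0.54 with thinned reads (adjusted p = 0.439). In KO mice it was 0.17 ± 0.40 (interval -0.67 to 1.003, adjusted p = 0.896), and the interaction was -0.66 ± 0.56 (interval -1.84 to 0.52, adjusted p = 0.459). KO minus WT was -0.32 ± 0.40 under OXA (adjusted p = 0.606) and 0.34 ± 0.40 under vehicle (adjusted p = 0.822).

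**Figure D5:**
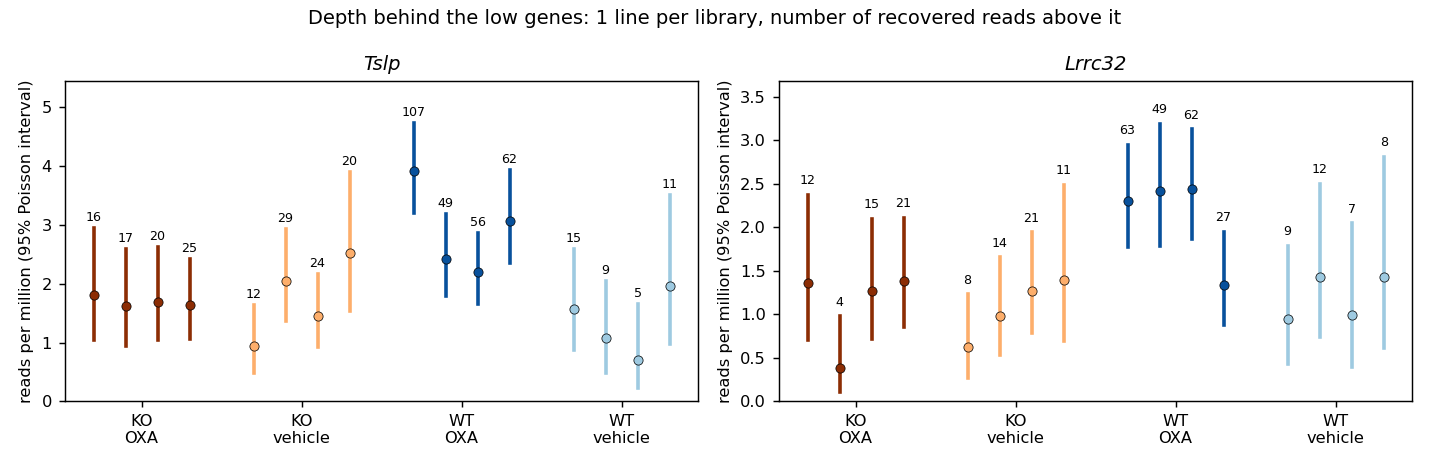
Reads per M reads of Tslp (left) and Lrrc32 (right) in each library, with exact 95% Poisson intervals (vertical lines, counting error only) and the number of recovered reads above each. In both panels some intervals of every group overlap those of the other groups, and the libraries with the fewest reads, 5 for Tslp in WT vehicle and 4 for Lrrc32 in KO OXA, have the lowest points of their panels.

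Of the other genes of TSLP and alarmin signalling, 11 of 13 were tested, of which 6 rose and none fell in WT mice (median 0.88, against 0.10 over all genes), 1 rose in KO mice, and 1 had a negative interaction. Over all tested genes 18.0% rose and 16% fell in WT mice. In KO mice 1.90% were called, and in the interaction 17.8%, in either direction. A negative interaction was called for 1284 of the 16748 tested genes. Il7r, the receptor chain shared by TSLP and IL-7, averaged 24.6 ± 14.9 in KO OXA, 17.0 ± 11.2 in KO vehicle, 59.3 ± 7.41 in WT OXA and 9.38 ± 4.00 in WT vehicle. It rose by 2.60 ± 0.54 in WT mice (limma, adjusted p = 0.000979). Crlf2, the TSLP-specific receptor chain, averaged 77.9 ± 19.8, 54.9 ± 6.61, 124 ± 14.8 and 73.5 ± 36.0 in the same groups. Its WT difference of 0.95 ± 0.36 (adjusted p = 0.0469) held under 12 of 28 alternatives and was lost without WT vehicle library 2 (0.45), any WT OXA or KO vehicle library, or KO OXA library 2 or 3 (adjusted p = 0.052 to 0.16).

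Ccl22, a chemokine that TSLP induces in dendritic cells, rose in both genotypes. It averaged 28.1 ± 18.0 in KO OXA against 2.51 ± 2.83 in KO vehicle (3.20 ± 0.64, limma, adjusted p = 0.00779), and 67.2 ± 14.1 in WT OXA against 8.65 ± 5.96 in WT vehicle (3.08 ± 0.64, adjusted p = 0.000967). The interaction of 0.11 ± 0.90 did not pass (adjusted p = 0.951), and the KO rise did not pass when only the KO libraries were fitted (0.056). Il33, another epithelial alarmin, averaged 1272 ± 367 in KO OXA, 947 ± 154 in KO vehicle, 1667 ± 350 in WT OXA and 907 ± 211 in WT vehicle. Its WT rise was 0.88 ± 0.21 (adjusted p = 0.00306), and its KO difference of 0.39 ± 0.21 did not pass (adjusted p = 0.426).

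Stat5b, a transcription factor that relays the TSLP signal, differed by 0.42 ± 0.16 in WT mice (limma, adjusted p = 0.051). The summed leukocyte markers given above for the 4 groups moved with these receptor and chemokine genes, and their part in the result was not tested.

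At the Tslp locus, 3 of 8 annotated genes within 250 kb were tested. Wdr36, a ribosome biogenesis gene next to TSLP in human risk studies, averaged 311 ± 71.9 in KO OXA, 244 ± 39.6 in KO vehicle, 182 ± 31.8 in WT OXA and 243 ± 65.0 in WT vehicle. Its WT difference was -0.39 ± 0.21 (limma, adjusted p = 0.17), and KO OXA was above WT OXA by 0.76 ± 0.21 (adjusted p = 0.0114), though not with equal totals (0.188). Camk4, a calcium-dependent kinase of lymphocytes and neurons, rose by 2.98 ± 0.87 in WT mice (adjusted p = 0.0124), with 91.6 ± 15.3 in WT OXA against 25.35 ± 25.6 in WT vehicle. Without WT vehicle library 3, listed at 0, its rise was 1.81 (adjusted p = 0.0386). Over all libraries the gene most like Tslp was Kif2c, a mitotic kinesin (r = 0.86), followed by Nxf1 (0.81), Litaf, Rnase6 and Chaf1b, and the r between Tslp and Lrrc32 was 0.42.

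Lrrc32 showed the same limit. The gene (ENSMUSG00000090958) lies at chr7:98489283-98502181 on the + strand, with 3 exons in its longest transcript and no overlapping gene. Its normalized counts were 22.00, 4.76, 18.57 and 16.55 in KO OXA and 7.80, 12.08, 15.98 and 18.05 in KO vehicle. They were 22.86, 25.15, 24.33 and 14.58 in WT OXA, against 12.39, 18.54, 12.77 and 17.83 in WT vehicle. Of the WT OXA libraries 3 were the highest of the 16, and the other lay within the range of WT vehicle.

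The Lrrc32 values rested on 52 reads in KO OXA, 54 in KO vehicle, 201 in WT OXA and 36 in WT vehicle. The log2 difference was 0.46 ± 0.46 in WT mice (interval -0.49 to 1.42, limma, adjusted p = 0.466) and 0.07 ± 0.46 in KO mice (interval -0.88 to 1.03, adjusted p = 0.964). The interaction was -0.39 ± 0.65 (adjusted p = 0.721), and KO minus WT was -0.61 ± 0.46 under OXA (adjusted p = 0.356) and -0.22 ± 0.46 under vehicle (adjusted p = 0.906). Without KO OXA library 2, which had 4 reads, the interaction was 0.055, with the other sign. The groups did not differ beyond their spread, in the order WT OXA (21.7 ± 4.86), KO OXA (15.5 ± 7.49), WT vehicle (15.4 ± 3.25) and KO vehicle (13.5 ± 4.52; SD, n = 4 each).

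The 18 genes of TGF-beta storage and signalling were all tested, of which 8 rose and 2 fell in WT mice (median 0.56, against 0.10 over all genes), none changed in KO mice, and 3 had a negative interaction. Over all tested genes 18.0% rose and 16% fell in WT mice. In KO mice 1.90% were called, and in the interaction 17.8%, in either direction. A negative interaction was called for 1284 of the 16748 tested genes. Ltbp1, which binds latent TGF-beta to the matrix, averaged 188 ± 26.3 in KO OXA, 225 ± 25.7 in KO vehicle, 1031 ± 158 in WT OXA and 163 ± 18.0 in WT vehicle. Its WT rise was 2.65 ± 0.16 (limma, adjusted p = 4.29e-10) and its interaction -2.90 ± 0.23 (adjusted p = 5.73e-08), with every WT OXA library at or above 844.14 and every other at or below 262.34.

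Tgfbr2, the ligand-binding TGF-beta receptor, rose by 0.78 ± 0.15 in WT mice (limma, adjusted p = 0.000664). Smad3, a transcription factor of the pathway, fell by 0.85 ± 0.21 (adjusted p = 0.0041), though not with equal totals (0.064). Tgfb1, the cytokine that LRRC32 docks, averaged 34.6 ± 16.1 in KO OXA, 39.5 ± 7.37 in KO vehicle, 63.9 ± 5.11 in WT OXA and 36.7 ± 15.8 in WT vehicle. Its WT difference of 0.88 ± 0.36 did not pass (adjusted p = 0.0666), but did with equal totals (0.0214) and without WT vehicle library 1 (0.0314) or KO OXA library 1 (0.0369).

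Markers of the cells that carry LRRC32 differed in direction. Of 6 regulatory T cell markers 4 rose in WT mice, where 18.0% of all tested genes rose (median 2.03, against 0.10 over all genes), among them Foxp3, the defining factor, at 9.14 ± 7.02 in KO OXA, 1.79 ± 1.31 in KO vehicle, 18.5 ± 9.67 in WT OXA and 2.15 ± 2.48 in WT vehicle (WT rise 2.97 ± 0.79, limma, adjusted p = 0.00659). Of 9 tested endothelial markers 7 rose in WT mice (median 0.97), 6 had a negative interaction, and all 9 were lower in KO OXA than in WT OXA, as were 12.9% of all tested genes. Among all 16748 tested genes, 1284 had a negative interaction. Pecam1, an adhesion molecule of endothelial junctions, averaged 222 ± 94.2 in KO OXA, 301 ± 54.1 in KO vehicle, 757 ± 164 in WT OXA and 332 ± 42.5 in WT vehicle. Its WT rise was 1.17 ± 0.25 (adjusted p = 0.00118) and its interaction -1.69 ± 0.35 (adjusted p = 0.00256).

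Of 5 tested platelet markers 2 fell in WT mice and none rose (median -0.50), where 16% of all tested genes fell. Pf4, a platelet chemokine, fell by 1.33 ± 0.34 (limma, adjusted p = 0.00529) and Gp1bb, a subunit of the von Willebrand factor receptor, fell by 1.29 ± 0.36 (adjusted p = 0.00863). Their part in the Lrrc32 values was not tested. Near Lrrc32, 5 of 12 annotated genes within 250 kb were tested. In WT mice 1 rose and 1 fell, where 18.0% and 16% of all tested genes did. Emsy, a transcriptional regulator at the same human risk locus, averaged 319 ± 45.3 in KO OXA, 346 ± 20.2 in KO vehicle, 462 ± 56.0 in WT OXA and 336 ± 62.5 in WT vehicle. Its WT rise of 0.47 ± 0.16 (adjusted p = 0.0308) was lost without WT vehicle library 3 or 4 or WT OXA library 1, 2 or 3 (adjusted p = 0.0517 to 0.109). Thap12, a gene of a zinc-finger family, fell by 0.84 ± 0.13 in WT mice (adjusted p = 6.42e-05), with an interaction of 0.72 ± 0.18 (0.0102) that did not pass with equal totals (0.3003). Among the genes most like Lrrc32 were Adra2a (r = 0.81), Mdrl (0.80), Rnd1 and Mtus2.

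Spink7 was at the limit of detection. The gene (ENSMUSG00000060201) lies at chr18:62592413-62596264 on the - strand, inside the span of Spink10 on the + strand. It had 7 reads in all, in 4 of the 16 libraries: 1 in each of KO OXA libraries 2 and 4, 1 in KO vehicle library 2 and 4 in WT OXA library 4. The normalized counts of these libraries were 1.19, 0.79, 0.86 and 2.16, and the other 12 were listed at 0. All 4 WT vehicle libraries were at 0, which allows up to 0.0981 reads per M reads over that group (3 reads of its total). By exact two-sided permutation over libraries, OXA against vehicle gave p = 0.714 in KO mice and p = 1.0 in WT mice, and KO against WT gave p = 1.0 under both treatments, where 0.0286 is the smallest p that 4 against 4 libraries allow. Since genes found in most cells were also at 0 in this file, as for Map1lc3b above, these data do not show whether Spink7 is expressed.

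Other SPINK inhibitors were mostly low as well, with 4 of 10 tested, of which 1 rose in WT mice. Spink12 averaged 20.5 ± 31.7 in KO OXA, 0.41 ± 0.82 in KO vehicle, 45.2 ± 32.7 in WT OXA and 3.94 ± 5.27 in WT vehicle (WT rise 3.66 ± 0.98, limma, adjusted p = 0.00685). The proteases these inhibitors act on, with the plasminogen activators and the receptor PAR2, were all tested: of 17 genes 6 rose and 5 fell in WT mice, none changed in KO mice, and 4 had a positive and 2 a negative interaction. Over all tested genes 18.0% rose and 16% fell in WT mice. In KO mice 1.90% were called, and in the interaction 17.8% (10.1% as positive). Klk5, a kallikrein that starts the protease cascade of shedding epithelium, averaged 496 ± 41.9 in KO OXA, 391 ± 68.6 in KO vehicle, 6.41 ± 7.86 in WT OXA and 307 ± 55.3 in WT vehicle. It fell by 6.05 ± 0.52 in WT mice (adjusted p = 5.4e-08), with an interaction of 6.41 ± 0.73 (adjusted p = 7.52e-06). Klk8, another kallikrein of differentiated epithelium, fell by 1.70 ± 0.22 (adjusted p = 1.12e-05), while Klk12 rose by 1.37 ± 0.22 (adjusted p = 0.000105).

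In place of Capn14, a list of other calpains with calpastatin was described, and the desmosomal and cornified envelope genes that CAPN14 is known to affect. Of 13 tested genes of calpains and calpastatin none rose and 4 fell in WT mice (median -0.39, against 0.10 over all genes). None changed in KO mice, and 3 had a positive and 1 a negative interaction. Over all tested genes 18.0% rose and 16% fell in WT mice. In KO mice 1.90% were called, and in the interaction 17.8% (10.1% as positive). Capn9, a calpain of the digestive tract, had 64.18, 25, 28.47 and 47.27 normalized counts in KO OXA and 22.42, 43.15, 28.91 and 22.98 in KO vehicle. It had 6.53, 5.13, 3.53 and 14.04 in WT OXA, against 38.55, 66.45, 54.73 and 17.83 in WT vehicle. WT OXA was below every other library, and Capn9 fell by 2.45 ± 0.47 (limma, adjusted p = 0.000501) with an interaction of 2.87 ± 0.66 (adjusted p = 0.00549).

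Capn12, a calpain of hair follicles, fell by 2.72 ± 0.38 in WT mice (limma, adjusted p = 1.98e-05), with an interaction of 2.01 ± 0.53 (adjusted p = 0.0128). Capn1, the ubiquitous calpain, fell by 0.69 ± 0.18 (adjusted p = 0.00473) but not with equal totals (0.13). Of 10 tested desmoglein and filaggrin barrier genes 3 rose and 4 fell in WT mice, with 5 positive and 2 negative interactions. Over all tested genes 18.0% rose and 16% fell in WT mice, and 17.8% had a called interaction (10.1% as positive). Flg, the filaggrin of the cornified layer, averaged 573 ± 206 in KO OXA, 234 ± 116 in KO vehicle, 1.70 ± 1.24 in WT OXA and 220 ± 114 in WT vehicle, a log2 difference of -6.38 ± 0.47 in WT mice (adjusted p = 5.68e-09). Dsg1a, a desmosomal cadherin, fell by 1.71 ± 0.24 (adjusted p = 1.97e-05), with an interaction of 2.04 ± 0.33 (adjusted p = 0.000373). Capn12, Capn1, Flg and Dsg1a had their lowest mean in WT OXA, the group that was also lowest in the summed squamous markers given above. This does not hold for all the barrier genes, of which 3 rose in WT mice. The part of squamous epithelium in these values was not tested.

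Of 11 other tested genes at human risk loci, the neighbours above included, 4 rose and 4 fell in WT mice, and KO OXA was above WT OXA for 6 and below it for 2. Over all tested genes 18.0% rose and 16% fell in WT mice, and KO OXA was above WT OXA for 14.6% and below it for 12.9%. Stat6, the transcription factor through which IL-4 and IL-13 receptors signal, had 1608.05, 1208.54, 1156.09 and 1056.53 normalized counts in KO OXA and 943.52, 796.53, 985.35 and 1098.04 in KO vehicle. It had 783.53, 762.56, 809.02 and 913.17 in WT OXA, against 1177.25, 1053.90, 1244.21 and 1138.80 in WT vehicle. WT OXA was below both KO OXA and WT vehicle without overlap. The WT difference was -0.50 ± 0.14 (limma, adjusted p = 0.0111), the interaction 0.88 ± 0.20 (adjusted p = 0.00531) and KO minus WT under OXA 0.61 ± 0.14 (adjusted p = 0.00335). With equal totals none of these passed (adjusted p = 0.271, 0.0697 and 0.23).

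Between KO vehicle and WT vehicle, in which 0.0597% of all genes were called, none of the 4 tested risk genes differed in limma, edgeR or DESeq2, and none had an unadjusted p under 0.05 in limma.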

How the data were processed

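CEL-Seq libraries of esophageal RNA from mice (16 libraries) were sequenced (NextSeq550), per the labels' protocols. Per the submitters' processing notes, the authors used FastQC 0.11.5, Trim Galore, cutadapt 1.10, TopHat2 2.1.0, Bowtie2 2.2.6, the GRCm38 build, HTSeq 0.6.1 and DESeq2 1.28.0. Annotation release, strand use and molecular identifiers are not given in the sources used here. What the authors deposited is a non-negative signal, called normalized counts here: each gene's count over its library's size factor. Undoing that division gave whole reads for 100% of values (within 0.1 of a read), and library depths of 5.61 to 27.3 M reads.

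Groups were compared with limma (version 3.58.1, R 4.3.3) on log2 of the value plus 1, which understates the change of low genes. It used group means over all 16 libraries, eBayes with a trend, and two-sided p-values with Benjamini-Hochberg adjustment over 16748 genes at a threshold of 0.05. Genes had to reach 5 in no fewer than 4 libraries. On recovered reads edgeR 4.0.16 (quasi-likelihood, TMM) called 5510 genes and DESeq2 1.42.0 called 6037 for OXA in WT mice, against 5692 in limma. Spink7, below the filter, was compared by exact permutation of libraries (scipy 1.17.1). Poisson and detection limits, at 3 reads, cover counting error only. Gene coordinates are those of the deposited file, and exon numbers and neighbours' strands come from GENCODE M21 on the same build. The scripts were tested on simulated data.

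The risk genes, gene lists and tests were chosen with earlier results of these data known, so patterns already seen in them are not independent support. Genes were named by rule: the 6 risk genes, the 3 genes of each list with the smallest p in WT mice and the 2 with the smallest p in the interaction, the 5 most like each risk gene over the 16 libraries, and the 3 with the smallest p within 250 kb of it. Crlf2, Tgfb1, Dexi, Ciita and Nudt19 fell outside this rule and were chosen after their values were seen, as were the genes described from among those the rule named. Alternatives were other pseudocounts (0.5 and 5), no filter or one at 20, equal library totals, quantile normalization, only the groups compared, no trend, array weights, edgeR, DESeq2, thinned reads and each library left out. Capn14 and Vamp7 were not analysed here. A gene near Ankrd27 and one like Lrrc32, both named by this rule, are not reported here.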

Additional observations from a re-analysis of the deposited data

Results flagged for a closer look

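For Spink7 a single library stood far from the other 3 of its group in KO vehicle (library 2, 0.86 normalized counts, 1 read) and in WT OXA (library 4, 2.16, 4 reads), the others being at 0. Of 19 groups of risk gene values examined for such a library 2 were flagged, and chance flags about 1 in 20 where values are not tied. That rate does not apply to Spink7, since with 3 libraries at 0 any read in the remaining library is flagged. A value at 0 to 4 reads says little more than that the gene was near the detection limit.

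The effect of OXA differed between KO and WT mice by limma's interaction test (KO effect minus WT effect, log2 scale, adjusted p under 0.05) for Ankrd27 (0.84) and for 30 other genes named here. Near Ankrd27 these were Rgs9bp (2.30), Pdcd5 (1.21) and Nudt19 (0.79), and among its partners Rab38 (1.25) and Vps29 (1.03). Among genes picked as most like it over these same libraries they were Pla2g3 (1.67), Il10rb (0.85), Gpld1 (2.29), Sh3gl1 (1.30) and Gsdma (1.87), which is not independent of the Ankrd27 result. Near Clec16a, among its partners and among genes like it, they were Socs1 (-1.75), Emp2 (1.65), Rmi2 (-1.46), Map1lc3a (1.27), Bnip3 (0.78) and Pitpnc1 (-1.06). In the families of the other risk genes they were Capn12 (2.01), Capn9 (2.87), Klk5 (6.41), Ltbp1 (-2.90), Stat5b (-0.75), Tgfbr2 (-0.71), Klk8 (2.26), Klk12 (-1.17), Flg (7.80) and Dsg1a (2.04), near Lrrc32 and among endothelial and platelet markers Thap12 (0.72), Pecam1 (-1.69) and Pf4 (1.43), and at another risk locus Stat6 (0.88). With equal library totals the calls of Ankrd27, Nudt19, Vps29, Il10rb, Thap12, Bnip3, Pf4 and Stat6 were lost, and Stat5b was lost with thinned reads (adjusted p = 0.0662) and without WT OXA library 1, 2 or 3 or KO vehicle library 1 or 3 (adjusted p = 0.052 to 0.0606). Bnip3 was also lost with quantile normalization and without WT OXA library 3 or 4, and Rmi2 with thinned reads and without WT OXA library 2 (adjusted p = 0.0529). Tgfbr2 was lost with no trend and without WT vehicle library 3 or 4, WT OXA library 1 or 2, KO vehicle library 1 or 4 or KO OXA library 3 (adjusted p = 0.0522 to 0.0688). Pf4 was lost in 5 of 11 other settings and without 11 of the 16 libraries in turn (adjusted p = 0.0506 to 0.109).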

How the results depend on the processing

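No paired analysis was possible because the titles give each library a code of its own and no replicate number or pairing shared between groups. The Ankrd27 decrease in WT mice and its difference between KO OXA and WT OXA passed in all 28 alternatives (-0.85 to -0.45 and 0.43 to 0.90). Its interaction passed in 26 of 27, the exception being equal library totals (0.39). That setting also brought the WT differences of Tslp (1.14) and Clec16a (0.59) and the Clec16a interaction (-1.06) past the threshold; it moves the median of all genes. The Clec16a difference between KO OXA and WT OXA passed with a filter of 20 (-0.49), equal totals (-0.90), only the groups compared (-0.49), array weights (-0.50), edgeR (-0.51) and DESeq2 (-0.49); the cause was not tested. Differences near 0 changed sign: Ankrd27 in KO mice with equal totals (-0.054) and between vehicle groups with array weights (-0.024), DESeq2 (-0.00203) and thinned reads (-0.022), Lrrc32 in KO mice with equal totals (-0.044), quantile normalization (-0.042) and thinned reads (-0.12), and Tslp between vehicle groups with thinned reads (-0.087). Leaving out 1 library gave ranges of -0.086 to 0.39 for Tslp in KO mice, -0.15 to 0.52 for Lrrc32 in KO mice, -0.61 to 0.055 for its interaction and -0.37 to 0.0031 for its vehicle difference, -0.070 to 0.090 for Ankrd27 between vehicle groups, -0.049 to 0.26 for Clec16a between vehicle groups, -0.75 to -0.44 for its interaction and -0.54 to -0.46 for KO OXA against WT OXA. Uncalled values that 1 library moved by over 1.5 times with no change of sign were the Tslp interaction (-0.91 to -0.41), its differences under vehicle (0.093 to 0.60) and OXA (-0.45 to -0.18), Lrrc32 under OXA (-0.83 to -0.16), Clec16a in WT mice (0.090 to 0.40) and Ankrd27 in KO mice (0.0018 to 0.11). Over all genes, calls in KO mice numbered 318, against 199 with only the KO libraries, 721 in DESeq2 and 182 to 1027 without 1 library (194 without KO OXA library 1, 182 without 2, 1027 without 4, 203 without KO vehicle library 1 and 195 without 3). Calls between vehicle groups numbered 10, against 5 with no filter, 5 with equal totals, 3 with no trend, 43 in DESeq2 and 3 to 12 without 1 library. Of 2432 recomputed values for other named genes, 2316 kept their call and direction, 113 lost the call, 3 gained it and 0 reversed. Tslp and Lrrc32 rest on their fewest reads in WT vehicle (40 and 36), and Spink7 on 7 in all, which limits the precision of their values.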
